A study of Mus musculus with 16 samples.

Results

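Gonadal fat of vagotomized mice that received SHU9119 was compared with gonadal fat of vagotomized mice that received vehicle, over all genes. These are 8 of the 16 polyA RNA libraries of a crossed design and were chosen by their labels, 4 libraries a group. The VX_SHU libraries come from mice with subdiaphragmatic vagotomy (sDVX, the cutting of the vagus nerve below the diaphragm) that received SHU9119, and the VX_Veh libraries from mice with the same surgery that received vehicle. Infusion into the cerebral ventricles was by osmotic minipump, began 4 weeks after surgery and ran for 2 weeks, and the SHU9119 dose was 1 nmol per day. The 8 sham-operated libraries, 4 with SHU9119 (Sham_SHU) and 4 with vehicle (Sham_Veh), entered the same fit and are used here for the test of whether the SHU9119 difference was unlike that after sham surgery. All mice were lean C57BL/6J males of 16 weeks on chow, and all groups were given the same number of calories during the infusion, so intake does not differ by design. The labels do not say that each library is a separate mouse, so that p-values rest on the variation among the libraries as sequenced, part of which may be technical. The labels give no nerve or weight measurement that shows how complete each vagotomy was.

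SHU9119 is a peptide that blocks the melanocortin receptors MC3R and MC4R, through which neurons of the hypothalamus restrain feeding and raise energy expenditure. Signals from these neurons reach fat by way of autonomic nerves and, indirectly, by way of hormones such as insulin, and the vagus nerve is the main parasympathetic and sensory link between the brain and the abdominal organs. Gonadal fat of the male mouse is a white fat depot that lies against the epididymis and testis, is covered by mesothelium, and enlarges chiefly by the growth of its fat cells, which is accompanied by remodelling of the collagen matrix around them.

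The promoters of the gene that passed the test and of the gene next in rank are shown first, since the results turn on them. They are RefSeq sequences of GRCm38.p6, the build of the deposited data (mm10), and run 5′ to 3′ from 250 bases before a transcript start to 50 bases after it. The table lists 2 starts for Emp1 and 1 for Trp53inp2. The gene span of Emp1 given further on begins before both of its sequences, which thus lie wholly within that span. The span of Trp53inp2 begins inside its sequence. Capitals mark matches on either strand to the AP-1 site TGANTCA, the GC box GGGCGG and the TATA box TATAAA.
Emp1, first start, chr6:135362681-135362980, plus strand: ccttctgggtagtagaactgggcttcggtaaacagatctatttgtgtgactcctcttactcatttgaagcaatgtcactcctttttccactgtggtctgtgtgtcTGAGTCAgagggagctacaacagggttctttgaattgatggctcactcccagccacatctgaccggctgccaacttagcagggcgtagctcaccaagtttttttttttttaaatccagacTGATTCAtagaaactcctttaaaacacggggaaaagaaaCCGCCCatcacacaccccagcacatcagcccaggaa
Emp1, second start, chr6:135367243-135367542, plus strand: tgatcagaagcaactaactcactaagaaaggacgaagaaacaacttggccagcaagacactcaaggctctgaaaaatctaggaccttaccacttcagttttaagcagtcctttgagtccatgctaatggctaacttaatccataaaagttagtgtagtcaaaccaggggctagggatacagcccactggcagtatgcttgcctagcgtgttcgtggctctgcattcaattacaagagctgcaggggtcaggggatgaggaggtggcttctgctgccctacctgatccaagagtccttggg
Trp53inp2, chr2:155381606-155381905, plus strand: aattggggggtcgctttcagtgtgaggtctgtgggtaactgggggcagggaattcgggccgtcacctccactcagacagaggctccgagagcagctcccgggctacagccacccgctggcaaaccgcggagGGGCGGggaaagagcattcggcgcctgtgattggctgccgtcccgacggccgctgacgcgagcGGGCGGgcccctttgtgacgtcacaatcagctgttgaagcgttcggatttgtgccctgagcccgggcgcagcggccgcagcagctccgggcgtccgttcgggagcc
The first Emp1 start holds 2 AP-1 matches and 1 GC box match, the second holds 0 matches to any of the motifs, and the Trp53inp2 start holds 2 GC box matches. Of 32851 promoters of 300 bases in the table, 7.81% hold an AP-1 match, 35.7% a GC box match and 13.6% a TATA box match. A match describes letters only and says nothing of whether a factor binds.

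Libraries held 20425295 to 30889052 counts, and totals averaged 26233372 in VX_SHU and 25488534 in VX_Veh libraries (exact two-sided permutation p = 0.8). 3 libraries, VX_Veh1, VX_Veh4 and VX_SHU4, stood apart in marker genes, summed here in CPM (counts scaled to library size). The VX_Veh1 library had the lowest sum of the 20 adipocyte identity genes, 14470 CPM, against 23539 to 34168 in the VX_SHU libraries and 25344 to 33698 in the other VX_Veh libraries. It also had the highest sum of 20 motile cilia genes. That sum was 39.1, 260.2, 16.7 and 40.8 CPM in the VX_SHU libraries and 1544, 405, 374 and 30.2 CPM in the VX_Veh libraries, and no cilia gene was at 0 in all of them. The 27 epididymis genes summed to 12340 CPM in VX_SHU4 and 12012 in VX_Veh4, against 63.4 to 293.6 in the other VX_SHU and 208.0 to 623.4 in the other VX_Veh libraries, with Lcn9 at 0 in all 8. The 14 mesothelium genes ranged from 267.1 to 573.0 CPM in VX_SHU and from 485.2 to 883 in VX_Veh libraries. Fat markers were abundant in all 8 libraries, among them Adipoq, the gene of the hormone adiponectin, at 2167 to 3173 CPM in VX_SHU and 1205 to 3071 in VX_Veh libraries. Medians of 19 lists without these libraries are plotted further on, and the text gives those that bear on a result. The part of the neighbouring tissue in the differences was not tested beyond these values.

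**Figure D1:**
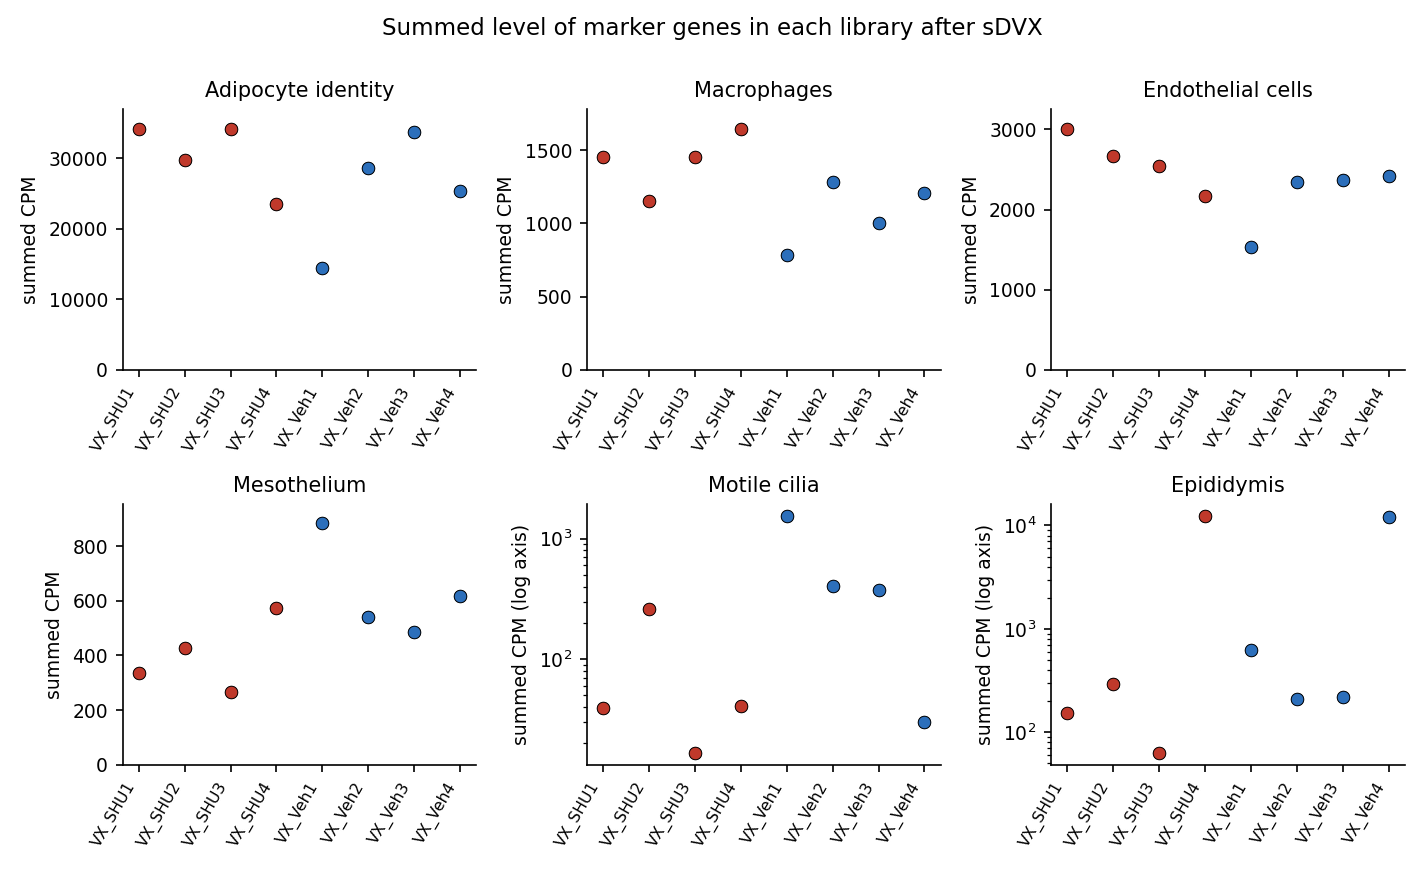
Summed CPM of marker genes (y axis, logarithmic for motile cilia and epididymis) in each of the 8 libraries after sDVX (x axis, red for VX_SHU, blue for VX_Veh). VX_Veh1 has the lowest adipocyte, macrophage and endothelial sums and the highest cilia and mesothelium sums, and VX_SHU4 and VX_Veh4 have epididymis sums of 12340 and 12012 CPM.

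After sDVX, Emp1, which encodes a tetraspan membrane protein of the PMP22 family, was higher with SHU9119, and it was the 1 gene of 16682 that passed. Its level was 627, 576, 627 and 539 CPM in the VX_SHU libraries, against 203, 352, 236 and 252 CPM in the VX_Veh libraries. The groups did not overlap, the lowest VX_SHU library lying well above the highest VX_Veh library. Emp1 rose by a log2 difference of 1.18 ± 0.156 (SE; adjusted p = 0.046, Benjamini-Hochberg over all genes of the edgeR quasi-likelihood test). Its means were 592 ± 43.0 CPM in VX_SHU and 261 ± 64.4 CPM in VX_Veh libraries (SD, n = 4 each). The gene lies at chr6:135362550-135383173. The share of all genes past this threshold was 0.00599%, and no gene fell. Within the whole fit, 915 genes were higher in VX_SHU with an unadjusted p under 0.05 (5.48% of those tested) and 1027 lower (6.16%). The 4 VX_SHU libraries lay above all 4 VX_Veh libraries in 488 genes (2.93%) and below all of them in 338 (2.03%).

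By edgeR the call of Emp1 was close to the threshold and its size was steadier than its adjusted p. DESeq2 and limma-voom with sample weights gave it adjusted p-values of 1.955e-09 and 0.0121. Without any 1 of the 16 libraries the log2 difference was 1.09 to 1.36, and the gene passed without Sham_Veh3 or VX_Veh2 (edgeR adjusted p = 0.0298 and 0.00231) but not without any other single library (0.103 to 0.345). Without VX_Veh1 the difference was 1.09, without VX_Veh4 and VX_SHU4 it was 1.21, and with the epididymis, testis and cilia sums as covariates it was 1.21, and the call was lost in each (edgeR adjusted p = 0.203, 0.301 and 0.284).

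The tetraspan list held Emp1 and its relatives, of which 13 of 14 were tested. Their median log2 difference was −0.13, against −0.02 for all genes tested, and turned to 0.11 without VX_Veh1, VX_Veh4 and VX_SHU4. Emp1 and Emp3 were higher in VX_SHU with an unadjusted p under 0.05 (5.48% of all genes), while Cldn12, Cldn10 and Emp2 were lower (6.16%). Emp3, a close relative of Emp1, had 33.9, 29.6, 35.5 and 34.4 CPM in VX_SHU libraries and 19.8, 29.4, 26.5 and 27.9 CPM in VX_Veh libraries, a log2 difference of 0.36 ± 0.147 (SE) that did not pass (edgeR adjusted p = 0.427). The tight junction gene Cldn12 was lower, at 36.2 to 43.1 CPM in VX_SHU against 39.1 to 103 in VX_Veh libraries. Its value in VX_Veh1 was 103 CPM, and its log2 difference was −0.60 with that library and −0.19 without it. Cldn10, another claudin gene, was highest in the libraries with the highest cilia sums, at 4.08, 19.7, 1.37 and 3.70 CPM in VX_SHU and 113, 29.8, 28.7 and 3.19 CPM in VX_Veh libraries.

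Trp53inp2, which encodes a protein that takes part in autophagosome formation and also acts as a nuclear receptor coactivator, had the next smallest p. It had 474, 385, 422 and 396 CPM in the VX_SHU libraries and 158, 251, 207 and 223 CPM in the VX_Veh libraries. Again the groups were apart, with no VX_Veh library reaching the lowest VX_SHU library. Trp53inp2 lies at chr2:155381811-155389847, and its log2 difference of 1.00 ± 0.158 (SE) had an unadjusted p of 2.03e-05 and did not pass (edgeR adjusted p = 0.17). Of the 32 autophagy genes, 1 other had an unadjusted p under 0.05 (5.48% of all genes higher and 6.16% lower). It was the paralog Trp53inp1, at 40.4 ± 5.98 CPM in VX_SHU and 57.6 ± 19.9 in VX_Veh libraries (SD, n = 4 each), with the highest value, 87.3 CPM, in VX_Veh1. Map1lc3a, which encodes an LC3 protein of the autophagosome membrane, had 144 to 158 CPM in VX_SHU and 82.7 to 137 CPM in VX_Veh libraries without overlap. The median of the autophagy list was 0.02.

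Beyond Emp1 and Trp53inp2, 10 other genes higher in VX_SHU were taken by smallest p, among genes with a name and a mean of at least 5 CPM. They had log2 differences of 0.37 to 0.86, and none passed (edgeR adjusted p = 0.396 for each). In each of them all 4 VX_SHU libraries lay above all 4 VX_Veh libraries, as in 2.93% of all genes, though choice by small p favours such genes. S1pr3, a receptor for the lipid mediator sphingosine 1-phosphate, had 43.9, 38.6, 39.2 and 37.5 CPM in VX_SHU libraries and 24.5, 29.1, 29.4 and 27.5 CPM in VX_Veh libraries (0.53 ± 0.0997, SE). The spread within each group was small beside the gap between them. Meox2, a homeobox transcription factor of mesenchymal and vascular cells, had 52.4, 46.7, 50.3 and 40.4 CPM in VX_SHU and 23.8, 32.2, 31.5 and 30.5 CPM in VX_Veh libraries (0.68 ± 0.145). Fmr1, which encodes an RNA-binding protein that regulates translation, had 244, 222, 345 and 234 CPM in VX_SHU and 123, 181, 142 and 158 CPM in VX_Veh libraries (0.79 ± 0.172). VX_SHU3 was the high library for Fmr1, while the other VX_SHU libraries were close together. Camk4, a calmodulin-dependent kinase, averaged 17.7 ± 2.16 CPM in VX_SHU and 9.72 ± 2.27 in VX_Veh libraries (SD, n = 4 each; log2 difference 0.86).

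The same 10 genes included Inpp5d, Itga4 and Ampd3, none of which passed by edgeR. By DESeq2 they did (adjusted p = 0.00934, 0.0115 and 0.00289), and by limma-voom only Ampd3 of these did (adjusted p = 0.0336). Inpp5d, a phosphatase of inositol lipids found mostly in blood cells, averaged 25.7 ± 1.40 CPM in VX_SHU and 17.9 ± 2.87 CPM in VX_Veh libraries (SD, n = 4 each). Itga4, an integrin by which leukocytes attach to vessel walls, averaged 17.6 ± 1.46 CPM in VX_SHU and 13.5 ± 1.37 in VX_Veh libraries, and Ampd3, an AMP deaminase, 77.4 ± 10.6 in VX_SHU and 50.8 ± 6.13 CPM in VX_Veh libraries. In bulk tissue, fewer cells of a type and less RNA per cell cannot be told apart, here or in any list below. The remaining genes were Adamts2, which cuts the amino end off procollagen (136 ± 10.3 CPM in VX_SHU, 90.3 ± 16.7 in VX_Veh), Numbl, an endocytic adaptor related to Numb (26.3 ± 1.73 CPM in VX_SHU and 20.3 ± 0.929 CPM in VX_Veh), and Ndn, an imprinted growth suppressor (29.4 ± 2.25 CPM in VX_SHU and 21.8 ± 1.13 CPM in VX_Veh). All 12 genes kept their direction and an unadjusted p under 0.05 without VX_Veh1, without VX_Veh4 and VX_SHU4, without these 3 libraries together, and with the marker sums as covariates. They were chosen by small p over largely the same libraries, so this was likely from the start and is no separate test. VX_Veh1 was the lowest VX_Veh library in 10 of the 12.

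The 12 genes of smallest p among those lower in VX_SHU were taken with the same limits on name and level. They had smaller differences, −0.68 to −0.23 on the log2 scale, and none passed (edgeR adjusted p = 0.396 to 0.427). The groups did not overlap in 11 of the 12 (2.03% of all genes), which were likewise chosen by small p. Phpt1, a phosphohistidine phosphatase, had 29.7, 29.3, 26.9 and 31.3 CPM in VX_SHU libraries and 45.3, 36.2, 36.8 and 37.2 CPM in VX_Veh libraries (−0.41 ± 0.0872, SE). Cbx7, a Polycomb protein that reads histone methylation, had 51.9, 54.3, 38.7 and 48.4 CPM in VX_SHU and 83.0, 60.3, 67.2 and 61.4 CPM in VX_Veh libraries (−0.49 ± 0.142). In both genes VX_Veh1 was the highest library, as it was in 11 of these 12 genes. Smyd3, a lysine methyltransferase, averaged 6.84 ± 0.884 CPM in VX_SHU and 9.52 ± 1.77 in VX_Veh libraries (SD, n = 4 each). Nck2, an adaptor that ties receptor signals to the actin skeleton, averaged 26.2 ± 1.63 CPM in VX_SHU and 36.6 ± 6.81 CPM in VX_Veh, and Zfp667, a zinc finger gene, 5.91 ± 0.443 CPM in VX_SHU and 9.47 ± 3.39 CPM in VX_Veh.

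The others in this direction were Prepl, a peptidase-like protein (log2 difference −0.41), the pseudogene Slc2a4rg-ps (−0.45), Metap1d, a mitochondrial aminopeptidase (−0.28), Tmem94, a membrane protein of the endoplasmic reticulum (−0.27), Fbxo7, a ubiquitin ligase subunit (−0.23), and Clcc1, a chloride channel protein (−0.24). Pde4dip, which anchors proteins at the Golgi and centrosome, was the 1 of the 12 whose groups overlapped, with 62.7, 69.0, 64.3 and 87.0 CPM in VX_SHU and 134, 82.2, 89.8 and 95.2 CPM in VX_Veh libraries. Without VX_Veh1 all 12 kept their direction and an unadjusted p under 0.05, and 9 of 12 did without VX_Veh1, VX_Veh4 and VX_SHU4 together and 10 of 12 with the marker sums as covariates. As these 12 were also chosen by small p over largely the same libraries, this too is no separate test. The number of genes lower in VX_SHU with an unadjusted p under 0.05 depended on VX_Veh1 more than the number higher did: without that library 109 were lower (0.644%) and 517 higher (3.05%).

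**Figure D2:**
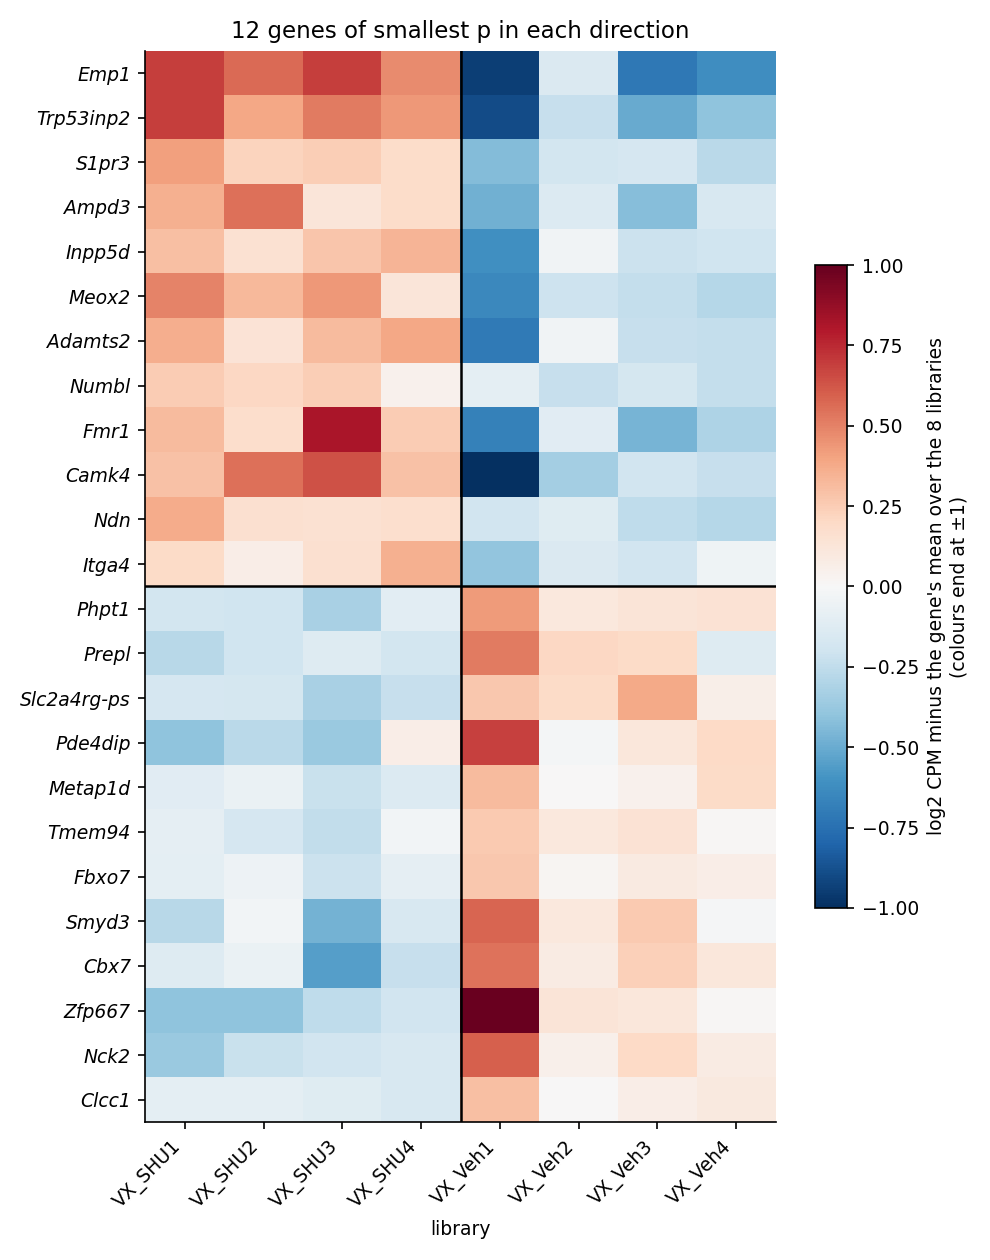
Log2 CPM of 24 genes, 12 higher and 12 lower in VX_SHU, as the difference from each gene's mean over the 8 libraries (colour, ending at 1 in each direction). The genes are those of smallest p among genes with a name and a mean of at least 5 CPM. Columns are libraries, VX_SHU left of VX_Veh, and VX_Veh1 is the most extreme VX_Veh library in 10 of the 12 genes above the line and 11 of the 12 below it.

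Collagen genes were mostly higher in VX_SHU, though none passed the adjusted threshold by edgeR. By DESeq2 Col1a1 passed (adjusted p = 0.00417), and by limma-voom with sample weights it did not (adjusted p = 0.1). Of 25 collagen genes, 10 were higher in VX_SHU with an unadjusted p under 0.05 (5.48% of all genes) and 1, Col16a1, lower (6.16%), and in 8 the groups did not overlap with VX_SHU above (2.93% of all genes). Col1a1, a chain of type I collagen, had 490, 437, 437 and 482 CPM in VX_SHU libraries and 327, 366, 315 and 299 CPM in VX_Veh libraries (log2 difference 0.50 ± 0.113, SE; edgeR adjusted p = 0.396). The VX_Veh libraries were close together here, VX_Veh1 included, and without it the log2 difference was 0.51. Col3a1, of type III collagen, had 1764, 1412, 2090 and 1537 CPM in VX_SHU and 688, 1352, 1228 and 1017 CPM in VX_Veh libraries (0.67 ± 0.198). Col6a3, of the type VI collagen that surrounds fat cells, had 227, 189, 299 and 207 CPM in VX_SHU and 122, 179, 169 and 142 CPM in VX_Veh libraries (0.59 ± 0.166). In both, the gap between the nearest libraries of the groups was narrow. Col5a1 was at 283 ± 46.0 CPM in VX_SHU and 180 ± 50.7 in VX_Veh libraries (SD, n = 4 each; log2 difference 0.65), and Col15a1, of the basement membrane zone, at 695 ± 245 CPM in VX_SHU and 422 ± 128 CPM in VX_Veh, with overlap. The median of the list was 0.40 with all libraries, 0.35 without VX_Veh1 and 0.28 without VX_Veh1, VX_Veh4 and VX_SHU4, against −0.02 for all genes.

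The matrix proteins and the enzymes that crosslink or remodel them were 47 tested genes, of which 15 were higher in VX_SHU with an unadjusted p under 0.05 (5.48% of all genes) and 0 lower (6.16%). In 9 the VX_SHU libraries lay above all VX_Veh libraries (2.93%) and in 1 below (2.03%). Lox, the lysyl oxidase that crosslinks collagen and elastin, had 75.8, 66.3, 73.8 and 64.3 CPM in VX_SHU libraries and 32.6, 54.1, 51.5 and 47.4 CPM in VX_Veh libraries (0.59 ± 0.133, SE; edgeR adjusted p = 0.396). All VX_SHU libraries were above all VX_Veh libraries, of which VX_Veh1 was the lowest. Fbln2, a matrix glycoprotein of elastic fibres and basement membranes, averaged 175 ± 11.2 CPM in VX_SHU and 125 ± 24.5 in VX_Veh libraries (SD, n = 4 each), and Nid1, the basement membrane linker nidogen, 833 ± 112 CPM in VX_SHU and 565 ± 150 CPM in VX_Veh. Dpt, which encodes the matrix protein dermatopontin and was listed among stromal cell markers, averaged 368 ± 53.3 CPM in VX_SHU and 239 ± 60.4 CPM in VX_Veh. The median of the matrix list was 0.26, and 0.24 without VX_Veh1. Of the stromal and progenitor cell markers, 2 of 18, Dpt and Col15a1, were higher (5.48% of all genes) and 1, Dlk1, lower (6.16%) with an unadjusted p under 0.05. The list's median was 0.15, and its summed levels were 2121 to 2438 CPM in VX_SHU and 1839 to 1997 CPM in VX_Veh libraries. These sums did not overlap, but they include the matrix genes Dpt and Col15a1, and Col15a1 is also in the collagen list. They are thus no separate measure of stromal cells, and the part of such cells in the collagen values was not tested.

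Genes listed as following the mass of a fat depot were 20 tested genes. Of these, 10 were higher in VX_SHU with an unadjusted p under 0.05 (5.48% of all genes), 0 lower and 2 without overlap (2.93%). Trp53inp2 was 1 of the 10. This list, like all the lists here, was written with earlier results of these data known, so its count is no independent support. Mest, an imprinted gene linked to fat cell enlargement, had 51.5, 64.9, 145 and 60.8 CPM in VX_SHU libraries and 22.2, 27.0, 22.4 and 27.9 CPM in VX_Veh libraries. VX_SHU3 was far above the rest, but the lowest VX_SHU library was still above every VX_Veh library. The log2 difference was 1.70 ± 0.392 (SE; edgeR adjusted p = 0.427), and 1.25 without VX_SHU3. Npr3, the clearance receptor for natriuretic peptides, had 643, 788, 1192 and 485 CPM in VX_SHU and 272, 572, 362 and 502 CPM in VX_Veh libraries, so that VX_SHU4 fell within the VX_Veh range. Lpgat1, a lysophospholipid acyltransferase, averaged 579 ± 119 CPM in VX_SHU and 370 ± 77.3 in VX_Veh libraries (SD, n = 4 each), and Cav1, the coat protein of the caveolae of fat cells, 3180.6 ± 624 CPM in VX_SHU and 2350.2 ± 364 in VX_Veh libraries. The median of the list was 0.47, and 0.34 without VX_Veh1.

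Adipokines, the secreted proteins of fat, gave 8 of 21 tested genes higher in VX_SHU with an unadjusted p under 0.05 (5.48% of all genes), 0 lower and 4 without overlap (2.93%). Lep, which encodes leptin, had 607, 870, 867 and 479 CPM in the VX_SHU libraries and 227, 573, 244 and 539 CPM in the VX_Veh libraries. The VX_Veh libraries fell into a low and a high pair, and VX_SHU4 lay below the high pair. The difference of 0.83 ± 0.37 did not pass (edgeR adjusted p = 0.427). Angpt2, an angiopoietin of vessel remodelling, averaged 14.3 ± 1.24 CPM in VX_SHU and 10.5 ± 2.42 in VX_Veh libraries (SD, n = 4 each). The adiponectin relatives C1qtnf1 (90.2 ± 3.44 CPM in VX_SHU and 70.8 ± 9.45 CPM in VX_Veh) and C1qtnf7 (12.2 ± 0.914 CPM in VX_SHU and 9.42 ± 1.77 CPM in VX_Veh) did not overlap between groups either, while Metrnl, a secreted protein of fat and muscle, did. The median of the list was 0.41, 0.29 without VX_Veh1, 0.21 without VX_Veh4 and VX_SHU4 as well, and 0.22 with the marker sums as covariates. Adipoq itself averaged 2712 ± 459 CPM in VX_SHU and 2298 ± 808 in VX_Veh libraries, and its log2 difference of 0.24 became 0.04 without VX_Veh1.

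**Figure D3:**
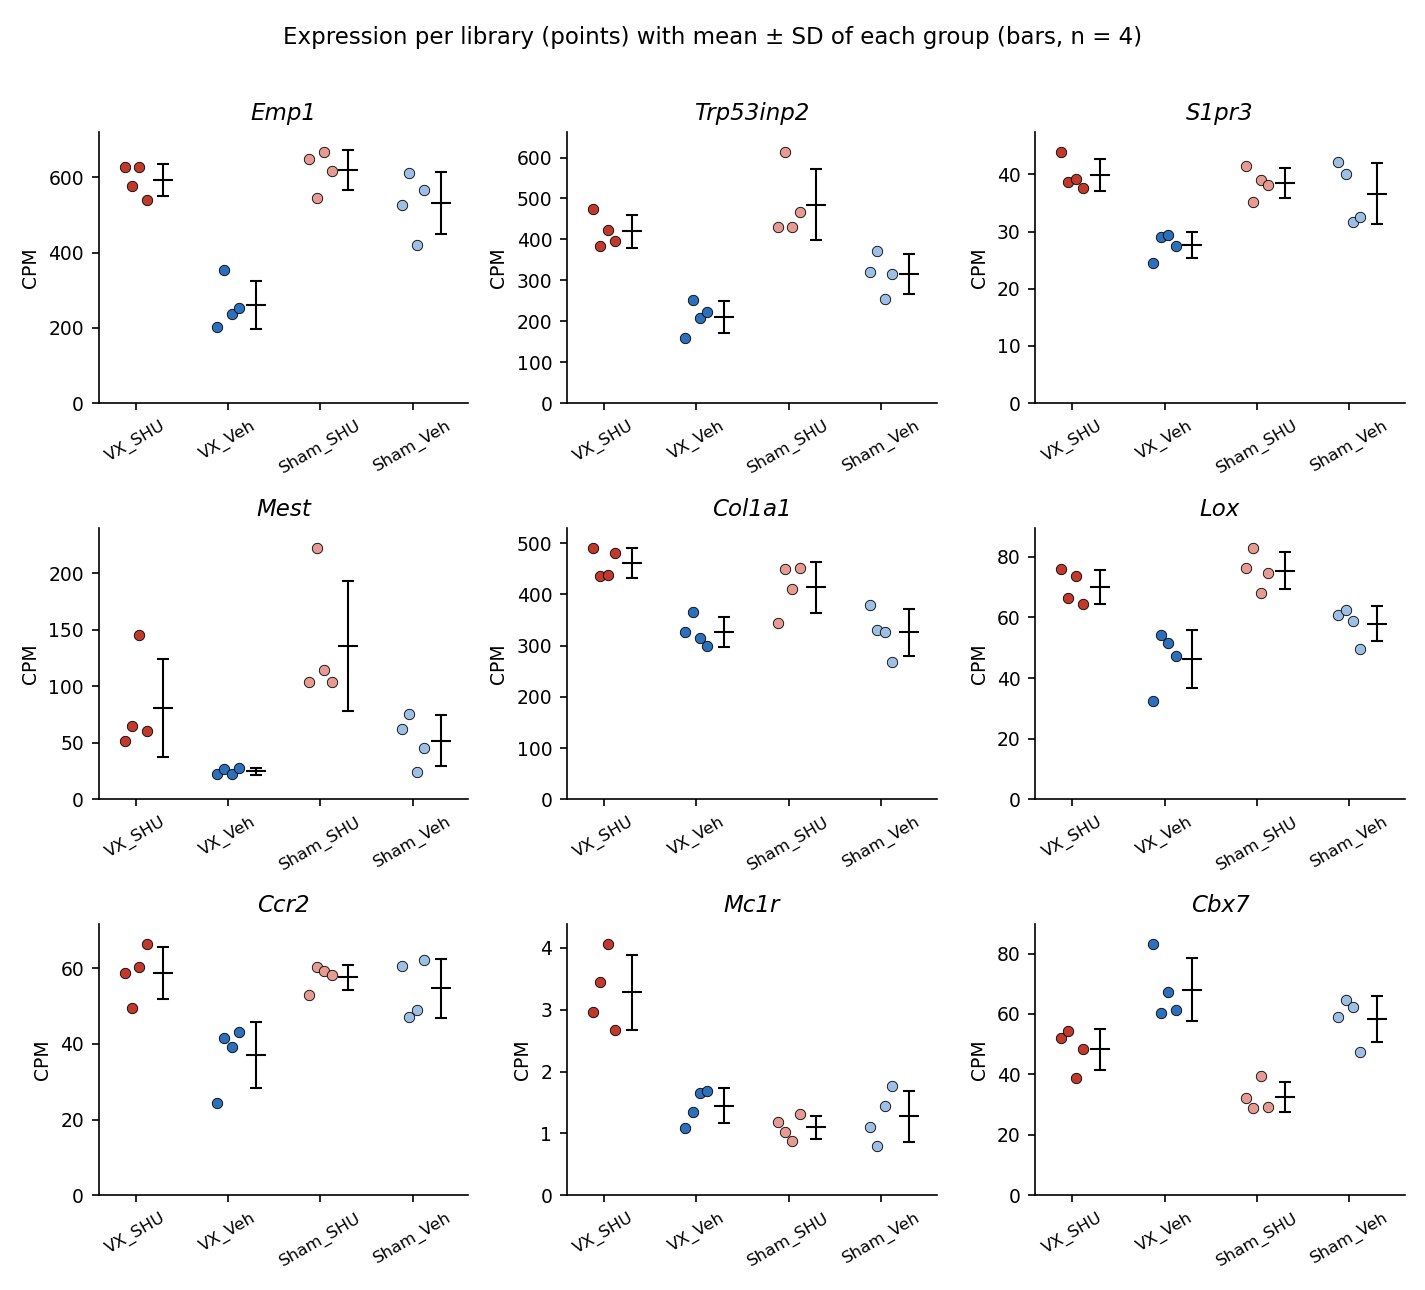
CPM (y axis) of 9 genes in every library (points) of the 4 groups (x axis), with the mean and SD of each group (bars, n = 4). The VX_SHU libraries lie above all VX_Veh libraries for every gene but Cbx7, where they lie below, and the Emp1 means are 592 CPM in VX_SHU and 261 in VX_Veh.

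Genes of fat cells and of their metabolism were read next. Of the adipocyte identity genes, 2 of 20 were higher with an unadjusted p under 0.05 (5.48% of all genes) and 0 lower (6.16%). The 2 were Lep and Zfp423, a regulator of the white fat cell state. The list's median of 0.29 became 0.10 without VX_Veh1 and turned to −0.06 with the marker sums as covariates. Pparg, whose product drives fat cell differentiation, averaged 276 ± 64.9 CPM in VX_SHU and 244 ± 84.5 in VX_Veh libraries (SD, n = 4 each; log2 difference 0.18). The groups overlapped, and the difference was 0.02 without VX_Veh1 and −0.05 without VX_Veh4 and VX_SHU4 as well.

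Of the triglyceride assembly and fatty acid uptake genes, 3 of 22 were higher with an unadjusted p under 0.05 (5.48% of all genes) and 1 was lower (6.16%). In 3 the groups did not overlap, with VX_SHU above (2.93%). Mogat2, which acylates monoacylglycerol, was low but separated, at 4.87, 3.85, 9.05 and 4.43 CPM in VX_SHU and 1.22, 3.02, 2.68 and 2.31 CPM in VX_Veh libraries (1.26 ± 0.373, SE). Dgat2, which adds the last fatty acid of a triglyceride, had 2589, 2267, 3609 and 2094 CPM in VX_SHU and 849, 1994, 1748 and 1660 CPM in VX_Veh libraries (0.76 ± 0.26). Agpat2, an acyltransferase earlier in the pathway, had 782, 656, 1203 and 650 CPM in VX_SHU and 271, 587, 631 and 526 CPM in VX_Veh libraries. In these 3 genes the lowest VX_SHU library lay just above the highest VX_Veh library. The 1 lower gene, Lpin2, a phosphatidate phosphatase, had its high value of 74.0 CPM in VX_Veh1, and its log2 difference was −0.91 with that library and −0.37 without it. The list's median was 0.28, 0.13 without VX_Veh1, and −0.02 with the marker sums as covariates.

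Of the lipolysis and lipid droplet genes, 4 of 20 were higher with an unadjusted p under 0.05 (5.48% of all genes) and 0 lower (6.16%). G0s2, which inhibits the lipase ATGL, had 216, 225, 167 and 134 CPM in VX_SHU libraries and 67.3, 126, 121 and 115 CPM in VX_Veh libraries (0.79 ± 0.195, SE; edgeR adjusted p = 0.427). Plin4, a droplet coat protein, had 3928, 3109, 4034 and 2809 CPM in VX_SHU and 1374, 2729, 2705 and 2587 CPM in VX_Veh libraries (0.56 ± 0.197), a narrow separation, and 0.39 without VX_Veh1. The others were Cav1 and Hilpda, a droplet protein that also inhibits ATGL, at 7.73 ± 0.665 CPM in VX_SHU and 6.03 ± 0.969 in VX_Veh libraries (SD, n = 4 each). The median was 0.33, 0.15 without VX_Veh1, and −0.03 with the marker sums as covariates. With these covariates 1 gene was higher (2.61% of all genes in that fit) and 2 lower (2.33%).

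Fatty acid synthesis gave 1 of 22 genes higher with an unadjusted p under 0.05, near the share of 5.48% over all genes, and 0 that did not overlap. That gene was Pnpla3, a lipase and acyltransferase of lipid droplets, at 868 ± 171 CPM in VX_SHU and 546 ± 197 in VX_Veh libraries (SD, n = 4 each). Fasn, the fatty acid synthase, had 10450, 7768, 23850 and 9350 CPM in VX_SHU libraries and 3944, 13290, 13200 and 9705 CPM in VX_Veh libraries, and 3 of the 4 VX_SHU libraries lay inside the VX_Veh range. Its log2 difference of 0.36 ± 0.486 (SE) turned to −0.13 without VX_SHU3. Scd1 and Scd2, which desaturate stearoyl-CoA and are paralogs between which the counting could split reads, had differences of 0.37 ± 0.383 and 0.32 ± 0.256. The list's median was 0.32, 0.11 without VX_Veh1, −0.06 without VX_SHU3 and −0.21 with the marker sums as covariates.

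Cholesterol synthesis and uptake gave 6 of 25 genes higher (5.48% of all genes), 0 lower and 4 without overlap (2.93%). Hmgcs1, which makes the substrate of HMG-CoA reductase, had 313, 237, 305 and 375 CPM in VX_SHU libraries and 140, 206, 201 and 188 CPM in VX_Veh libraries (0.74 ± 0.179, SE; edgeR adjusted p = 0.427). Sc5d, a late sterol desaturase, had 138, 183, 235 and 139 CPM in VX_SHU and 58.5, 137, 110 and 127 CPM in VX_Veh libraries (0.69 ± 0.252). The nearest libraries of the groups almost met in Sc5d and were further apart in Hmgcs1. Dhcr7, a sterol reductase late in the pathway, had 19.8 to 30.9 CPM in VX_SHU and 11.7 to 19.9 CPM in VX_Veh libraries, a log2 difference of 0.51 with overlap. The median of 0.36 became 0.22 without VX_Veh1 and 0.12 with the marker sums as covariates.

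Glucose uptake and glycolysis had a median of 0.02. With an unadjusted p under 0.05, 1 of 19 genes was higher (5.48% of all genes) and 1 lower (6.16%). Pfkp, a phosphofructokinase, averaged 92.5 ± 11.4 CPM in VX_SHU and 67.3 ± 7.80 in VX_Veh libraries (SD, n = 4 each), and Eno3, an enolase, 13.9 ± 2.54 CPM in VX_SHU and 18.4 ± 1.62 CPM in VX_Veh. Neither overlapped between groups (2.93% of all genes with VX_SHU above and 2.03% below). Of the 29 oxidative phosphorylation genes and the 22 fatty acid oxidation genes, 0 had an unadjusted p under 0.05 in either direction, with medians of 0.07 and 0.08. With the marker sums as covariates 8 of 29 and 5 of 22 were lower (2.33% of all genes in that fit) and 0 higher, and the medians turned to −0.15 and −0.14. Insulin signalling gave 2 of 21 higher (5.48% of all genes), Akt1 and Trib3, and 1 lower (6.16%). Akt1, a kinase downstream of the insulin receptor, had 126 to 132 CPM in VX_SHU and 105 to 122 CPM in VX_Veh libraries. Igf1r, the receptor for insulin-like growth factor, had 38.9, 61.7, 31.6 and 63.5 CPM in VX_SHU and 177, 66.1, 71.6 and 74.5 CPM in VX_Veh libraries. VX_Veh1 was far above the rest, and the log2 difference was −0.99 with it and −0.52 without it.

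Thermogenic genes had a median of −0.24. With an unadjusted p under 0.05, 3 of 16 were lower in VX_SHU (6.16% of all genes) and 0 higher (5.48%). Ppargc1a, a coactivator of mitochondrial biogenesis, had 14.3, 13.3, 12.1 and 9.503 CPM in VX_SHU libraries and 42.3, 18.9, 20.1 and 10.3 CPM in VX_Veh libraries. Esrrg, an orphan nuclear receptor, had 1.37, 4.91, 1.15 and 4.43 CPM in VX_SHU and 31.7, 9.03, 6.31 and 5.88 CPM in VX_Veh libraries. Ppara, a regulator of fatty acid oxidation, had 16.7 to 25.7 CPM in VX_SHU and 21.6 to 37.1 in VX_Veh libraries. VX_Veh1 was the highest library in all 3, and without it none of them had an unadjusted p under 0.05. Ucp1, which uncouples respiration in brown and beige fat, did not pass the filter on low counts: it had 3 counts over the 4 VX_SHU libraries and 511 over the 4 VX_Veh libraries, with 17.8 CPM in VX_Veh3 and at most 0.174 CPM in any other library.

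SHU9119 was given to the brain, and the melanocortin genes of fat were read as well. Of 12 genes for receptors, accessory proteins and ligands, 9 were tested. With an unadjusted p under 0.05, 2 of them were higher (5.48% of all genes) and 1 lower (6.16%). Mc1r, the receptor best known from pigment cells and also present on immune cells, was low in all libraries, at 2.97, 3.45, 4.06 and 2.67 CPM in VX_SHU and 1.09, 1.35, 1.66 and 1.69 CPM in VX_Veh libraries. Each VX_SHU library was above each VX_Veh library (1.18 ± 0.268, SE; edgeR adjusted p = 0.396). Atrnl1, a relative of the melanocortin-pathway gene attractin, averaged 58.1 ± 7.30 CPM in VX_SHU and 47.4 ± 6.40 in VX_Veh libraries (SD, n = 4 each), and Agrp, the natural antagonist that SHU9119 resembles in action, was at 0.256 to 0.443 CPM in VX_SHU and 0.308 to 0.834 in VX_Veh libraries. Mrap, which carries the corticotropin receptor to the surface of fat cells, had 149 to 264 CPM in VX_SHU and 62.9 to 154 in VX_Veh libraries, with overlap. Mc3r had 0 counts in all 8 libraries and Mc4r 8 counts in VX_SHU and 20 in VX_Veh libraries.

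Tph2, the neuronal tryptophan hydroxylase of serotonin synthesis, was at a very low level. It had 0.665, 0.342, 0.982 and 0.763 CPM in VX_SHU libraries and 0.087, 0.139, 0.176 and 0.0769 CPM in VX_Veh libraries, without overlap (2.46 ± 0.461, SE; edgeR adjusted p = 0.396). In the fit of the 8 libraries after sDVX alone Tph2 did not pass the filter on low counts, so its p rests on the fit of all 16 libraries. The log2 difference after sham surgery was 2.94, and the interaction had an unadjusted p of 0.483 by edgeR. Tph2 was the 1 of 11 tested serotonin genes with an unadjusted p under 0.05 (5.48% of all genes higher and 6.16% lower). Of the other synthesis genes, Tph1 and Gch1 had log2 differences of 0.69 and 0.38 and Ddc one of −2.69, all with overlap. S1pr3 was the 1 of 16 genes of sphingosine 1-phosphate signalling with an unadjusted p under 0.05. Adrenergic and cholinergic receptors (19 tested) and immediate early genes (20 tested) gave 0 in either direction at this spread.

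Markers of macrophages were 20 tested genes, 7 higher in VX_SHU with an unadjusted p under 0.05 (5.48% of all genes), 0 lower and 2 without overlap (2.93%). Ccr2, the receptor that draws monocytes into tissue, had 58.8, 49.6, 60.4 and 66.3 CPM in VX_SHU libraries and 24.3, 41.6, 39.2 and 43.1 CPM in VX_Veh libraries (0.66 ± 0.157, SE; edgeR adjusted p = 0.427). Mrc1, the mannose receptor of resident macrophages, had 145, 111, 121 and 152 CPM in VX_SHU and 86.0, 110, 87.0 and 104 CPM in VX_Veh libraries (0.45 ± 0.123), so that the nearest libraries of the groups almost touched. Lyz2, the lysozyme of myeloid cells, averaged 315 ± 51.1 CPM in VX_SHU and 214 ± 52.6 in VX_Veh libraries (SD, n = 4 each), and the scavenger receptor Msr1 10.7 ± 4.37 CPM in VX_SHU and 6.85 ± 1.14 CPM in VX_Veh, both with overlap. The summed level of the list was 1156 to 1648 CPM in VX_SHU and 785 to 1284 CPM in VX_Veh libraries, and no member was at 0. Its median was 0.37, 0.27 without VX_Veh1 and 0.14 without VX_Veh1, VX_Veh4 and VX_SHU4. The 14 genes of lipid-associated macrophages gave 0 in either direction, and their median of 0.32 became −0.04 without VX_Veh4 and VX_SHU4.

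Markers of other cell types and inflammatory mediators followed. Counts here are of genes with an unadjusted p under 0.05 and stand against 5.48% higher and 6.16% lower over all genes. Among mast cell and granulocyte markers, 2 of 17, Cma1 and Tpsab1, were higher and 2 lower. Cma1, a chymase of mast cells, had 14.3, 8.76, 6.06 and 11.2 CPM in VX_SHU and 5.13, 5.52, 4.76 and 6.88 CPM in VX_Veh libraries. Hdc, which makes histamine, had 4.79, 18.4, 3.33 and 4.58 CPM in VX_SHU and 100, 28.0, 26.8 and 2.999 CPM in VX_Veh libraries, again highest where the cilia sums were. Kit, a growth factor receptor of mast cells, was the other lower gene and was highest in VX_Veh1, at 54.5 CPM. Endothelial markers gave 2 of 20 higher, Flt1 and Ptprb, which encode a receptor for vascular endothelial growth factor and a phosphatase of vessel walls. All 20 had a positive log2 difference, with a median of 0.27 that became 0.14 without VX_Veh1. Their sum was 2169 to 3009 CPM in VX_SHU and 1534 to 2415 CPM in VX_Veh libraries, lowest in VX_Veh1. Among inflammatory mediators, 2 of 21 were higher. Tgfb1, of the growth factor that drives matrix production, averaged 46.2 ± 5.29 CPM in VX_SHU and 34.4 ± 8.03 in VX_Veh libraries, and the chemokine gene Ccl8 had 131 CPM in VX_SHU4 against 16.5 to 39.0 CPM in all other libraries after sDVX. The mesothelium list gave 1 of 14 lower, Krt19, a keratin also of ciliated and ductal epithelia, which was at 99.5 CPM in VX_Veh1. Of the motile cilia genes, 4 of 20 were lower, and all 20 had a negative difference, with a median of −2.76 that became −1.61 without VX_Veh1.

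The counts with an unadjusted p under 0.05 in the remaining lists stand against 5.48% higher and 6.16% lower over all genes. Interferon-induced genes gave 3 of 22 higher and 3 lower, and 1 in each direction without VX_Veh1, heat shock and endoplasmic reticulum stress genes 2 of 20 higher and 1 lower, and cell cycle genes 1 of 28 in each direction. Smooth muscle and pericyte markers gave 2 of 15 higher, and the nerve and Schwann cell, blood, and brown and subcutaneous fat markers 1 higher each, of 15, 5 and 6. Markers of T and NK cells (17 tested), B and plasma cells (12), testis and sperm (19), epididymis (16), skeletal muscle (9), lymph node stroma (3) and pancreas (2) gave 0 in either direction.

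**Figure D4:**
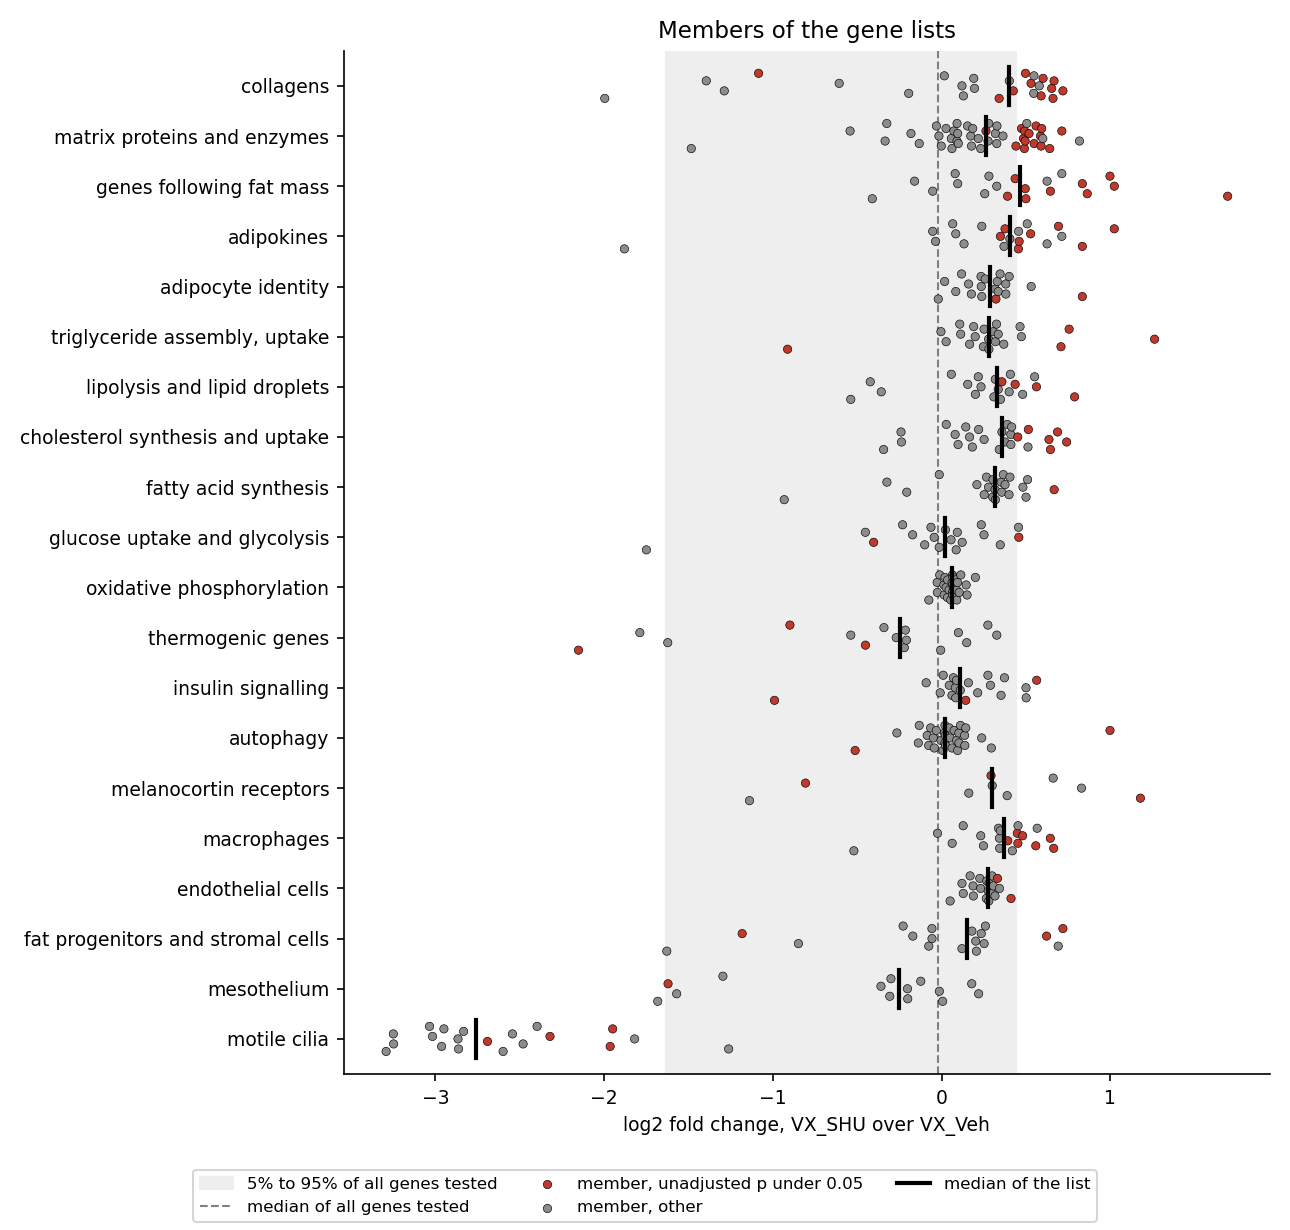
Log2 fold change of VX_SHU over VX_Veh (x axis) for every tested member of 20 gene lists (rows), in red where the unadjusted p was under 0.05, with each list's median as a black bar. The grey band holds 5% to 95% of all genes tested, from −1.64 to 0.44, and the dashed line is their median of −0.02.

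**Figure D5:**
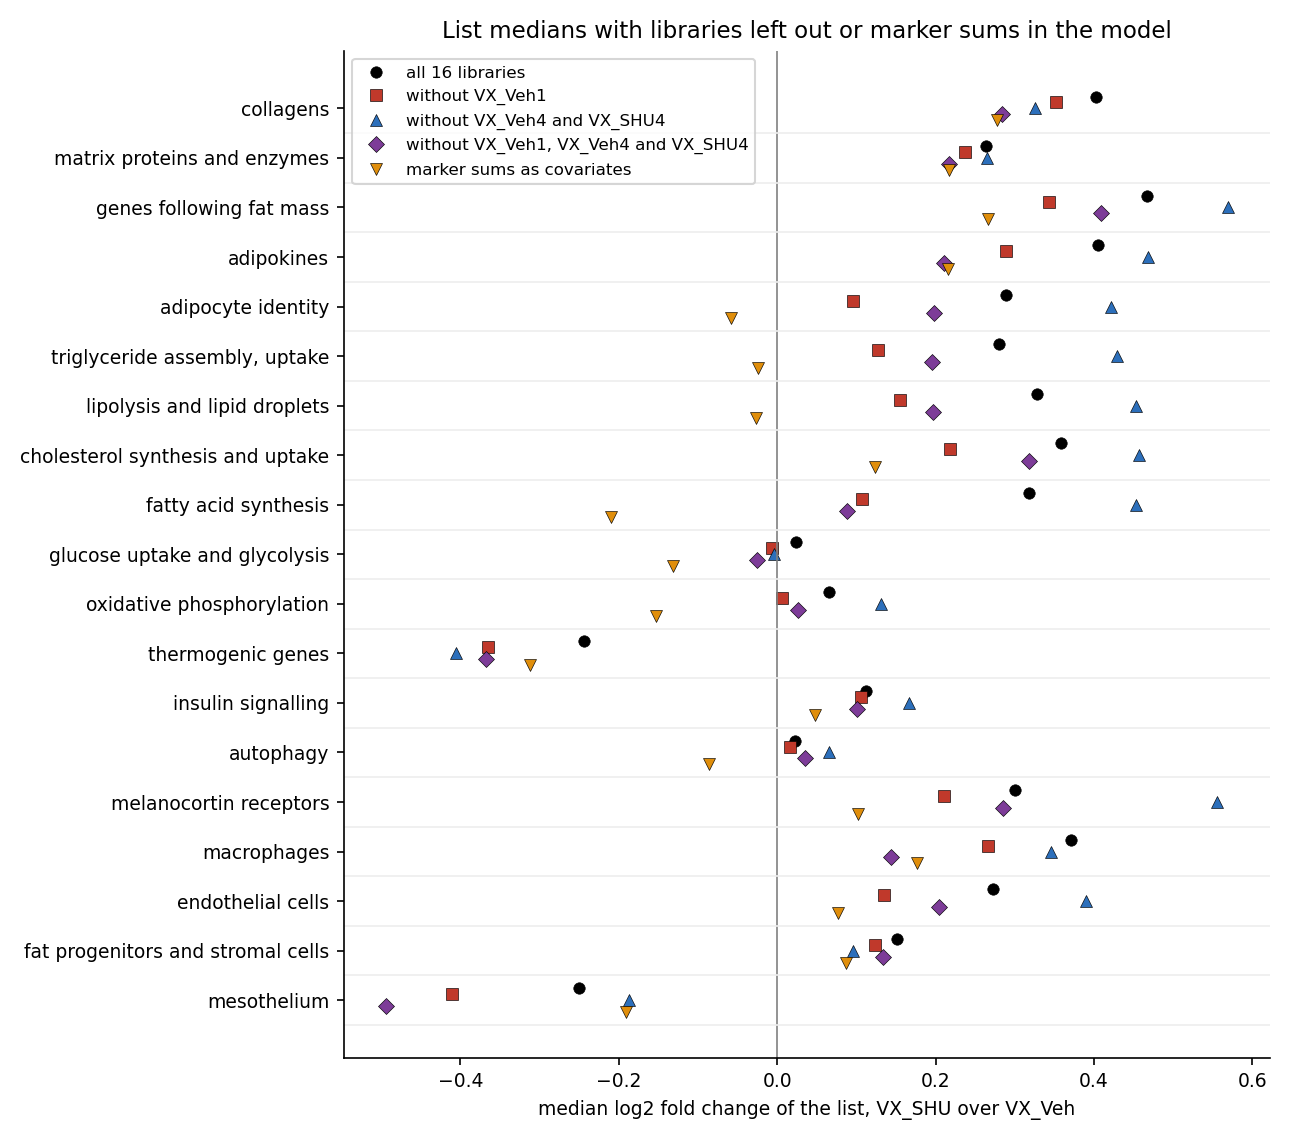
Median log2 fold change (x axis) of 19 gene lists (rows) with all libraries, with libraries left out, and with the marker sums as covariates (symbols). The medians of the collagen and matrix lists move least among those above 0.2, from 0.40 to 0.28 for collagens, and those of adipocyte identity, triglyceride assembly, lipolysis and fatty acid synthesis turn negative with the covariates, as do those of glycolysis, oxidative phosphorylation and autophagy, which start near 0.

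The crossed design also allows a test of whether the SHU9119 difference after sDVX was unlike that after sham surgery, by the interaction term of the fit. Of the genes tested 0 passed (0%; smallest edgeR adjusted p = 0.612). With an unadjusted p under 0.05, 555 genes (3.33%) had a more positive difference after sDVX and 239 (1.43%) a more negative one. After sham surgery itself 19 genes passed (0.114%), and 1827 were higher (11%) and 1446 lower (8.67%) in Sham_SHU with an unadjusted p under 0.05. For the interaction, by DESeq2 8 genes passed and by limma-voom with sample weights 13 did. Over all 16682 genes, the log2 differences after sDVX and after sham surgery, which share no library, had the same sign in 71.3% and a Pearson correlation of 0.73 across genes. Genes are not independent replicates, and motile cilia genes were lower under SHU9119 in both, with medians of −2.76 after sDVX and −1.96 after sham surgery.

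For Emp1 the interaction was 0.96 ± 0.218 on the log2 scale (SE), with an unadjusted p of 0.000602. It did not pass by edgeR but did by DESeq2 (adjusted p = 0.0344). After sham surgery the Emp1 means were 619 ± 53.5 CPM in Sham_SHU and 532 ± 81.4 CPM in Sham_Veh libraries (SD, n = 4 each). This was a log2 difference of 0.22, so the VX_Veh libraries were the ones that stood below the other 3 groups. S1pr3 was likewise lowest in VX_Veh, with 38.5 CPM in Sham_SHU and 36.6 in Sham_Veh libraries on average (interaction 0.46 ± 0.141, SE), and so had Ccr2, with 57.6 CPM in Sham_SHU and 54.7 in Sham_Veh libraries (0.59 ± 0.221). Mc1r differed from these: its VX_SHU libraries were above the other groups, whose averages were 1.45 in VX_Veh, 1.10 in Sham_SHU and 1.28 CPM in Sham_Veh libraries (interaction 1.39; edgeR unadjusted p = 0.00248). Trp53inp2 averaged 485 CPM in Sham_SHU and 316 in Sham_Veh libraries, and its interaction of 0.38 had an unadjusted p of 0.108.

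By rule, the 5 genes of smallest interaction p are named, and none passed by edgeR. Srpx, Ifi204, Arhgap15 and Numbl passed by both DESeq2 and limma-voom, and Scd2 by DESeq2. Srpx, a sushi-repeat matrix protein gene, had 33.9, 28.3, 26.0 and 34.1 CPM in VX_SHU and 27.3, 24.9, 25.7 and 22.4 CPM in VX_Veh libraries, and averaged 19.1 CPM in Sham_SHU and 31.2 in Sham_Veh libraries (0.99 ± 0.166, SE). Ifi204, an interferon-inducible DNA sensor, averaged 33.3 in VX_SHU and 26.7 CPM in VX_Veh, against 28.7 in Sham_SHU and 39.8 CPM in Sham_Veh libraries (0.79 ± 0.146). Both thus had opposite signs after the surgeries. Arhgap15, a Rac-inactivating protein (1.04 ± 0.202), and Numbl (0.55 ± 0.115) followed the same pattern. Scd2 differed more after sham surgery than after sDVX, and averaged 676 in VX_SHU and 542 CPM in VX_Veh libraries, against 1080 in Sham_SHU and 272 CPM in Sham_Veh libraries (−1.67 ± 0.365).

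Counts within the gene lists ran both ways. Of 22 fatty acid synthesis genes, 6 had a more negative SHU9119 difference after sDVX (unadjusted p under 0.05; 1.43% of all genes) and 0 a more positive one, and the medians were 0.32 after sDVX and 1.14 after sham surgery. For glycolysis it was 8 of 19, with medians of 0.02 after sDVX and 0.50 after sham surgery, and for cholesterol synthesis 5 of 25, with medians of 0.36 after sDVX and 0.87 after sham surgery. Collagens gave 0 more negative and 2 more positive, with medians of 0.40 after sDVX and 0.35 after sham surgery. Macrophage markers gave 9 of 20 more positive after sDVX (3.33% of all genes) and 0 more negative, with medians of 0.37 after sDVX and −0.10 after sham surgery, and mast cell and granulocyte markers 5 of 17, with 0.37 after sDVX and −0.43 after sham surgery. Cma1 had an interaction of 1.83 ± 0.468 and the lipolysis inhibitor G0s2 one of 0.63 ± 0.275 (SE). Mest (0.31) and Lep (−0.25) had interactions within their standard errors. Since no gene passed the adjusted threshold in the edgeR fit, from which these counts come, they describe the libraries and single out no gene.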

How the data were processed

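RNA was measured in 16 gonadal fat libraries of 4 groups. The authors deposited whole-number counts per gene under NCBI gene numbers. Per the submitters' processing notes bcl2fastq, TopHat, edgeR and the mm10 build were used, with no version, while for the counting tool, annotation and strand no source used here gives an entry. Of 24454 gene numbers, 24374 had a symbol in the RefSeq table of GRCm38.p6. The 80 others held 0.557% to 1.24% of a library's counts.

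Genes with low counts were left out with filterByExpr, which left 16682. The edgeR 4.0.16 quasi-likelihood F test (robust, TMM scaling, R 4.3.3) was fitted to all 16 libraries with 1 mean per group, and p-values were adjusted over all genes by Benjamini-Hochberg, with a threshold of 0.05. SE is the log2 fold change over the square root of F. CPM values were scaled by TMM. The test was run on simulated data first. Totals were compared by an exact permutation test over 70 assignments, and no pair of replicates agreed within sampling noise.

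The 12 genes of smallest p in each direction with a mean of at least 5 CPM, 4 genes of each list, 5 genes of the interaction and a fixed set were named, without mitochondrial genes, antigen receptor segments or gene models that have no name. Further list members are named from the counts. Of the named genes, 1 is not reported here. The members and lists were chosen with earlier results of these data known. Alternatives were DESeq2 1.42.0, limma-voom (limma 3.58.1), other scaling, no filter, non-robust dispersion, a replicate block, the 8 libraries after sDVX alone, marker sums as covariates, each library left out, and VX_Veh4 and VX_SHU4 left out. Leaving out VX_Veh1 together with these was added after the data were seen.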

Additional observations from a re-analysis of the deposited data

Results flagged for a closer look

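In 22 of 202 groups of 4 libraries (10.9%), 1 library lay farther from the other 3 than Dixon's 95% critical value allows. Chance flags about 1 in 20 independent groups. These groups are not independent, since the same 8 libraries were read for each gene and many of the genes were chosen by small p. The rates therefore cannot be compared. Of the 22 flagged libraries, 11 were VX_Veh1. It was the high library for Phpt1 (45.26 CPM, others 36.2 to 37.21), Zfp667 (14.53, others 7.381 to 8.026), Trp53inp1 (87.3, others 44.58 to 50.9), Esrrg (31.68, others 5.882 to 9.034) and Igf1r (176.7, others 66.12 to 74.54). It was the low library for Ifi204 (20.67 CPM, others 27.83 to 29.29), Map1lc3a (82.73, others 133.6 to 136.7), Plin4 (1374, others 2587 to 2729), Atrnl1 (37.82, others 49.75 to 51.09), Ptprb (143 CPM, others 187 to 192.6) and the endothelial sum (1534, others 2340 to 2415).

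VX_SHU3 was the high library for Mest (145.1 CPM, others 51.54 to 64.88) and Fasn (23850, others 7768 to 10450). VX_SHU1 was high for Ndn (32.79 CPM, others 28.18 to 28.47) and Tpsab1 (0.9749, others 0.5593 to 0.5977). VX_SHU2 was high for Cldn10 (19.7 CPM, others 1.366 to 4.077), Hdc (18.37, others 3.33 to 4.786) and the motile cilia sum (260.2, others 16.65 to 40.84). VX_SHU4 was high for Ccl8 (131.1 CPM, others 21.69 to 38.95). The epididymis sum was 12340 CPM in VX_SHU4 (others 63.36 to 293.6) and 12010 in VX_Veh4 (others 208 to 623.4). VX_Veh3 held nearly all Ucp1 counts of its group (17.81 CPM, others 0.03474 to 0.1741).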

How the results depend on the processing

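The 1 gene past the threshold, Emp1, was called with non-robust dispersion as well, and not with DESeq2 size factors, no low-count filter, the 8 libraries after sDVX alone, the marker sums as covariates, or without VX_Veh4 and VX_SHU4, with or without VX_Veh1 (0 genes in each). DESeq2 called 47 genes, with 4058 adjusted p-values not given, and limma-voom 20, both including Emp1. Trp53inp2, S1pr3, Ampd3, Numbl, Camk4, Ndn, Lox and G0s2, all higher in VX_SHU, and Phpt1, lower, also passed by both. For the interaction DESeq2 called 8 genes and limma-voom 13. Leaving out each library gave 0 to 1 gene after sDVX and 0 to 1 for the interaction. With an unadjusted p under 0.05, leaving out 1 library gave 517 to 1136 genes higher and 109 to 1669 lower. The lowest counts came without VX_Veh1. Leaving out VX_SHU1 or VX_SHU3 also lowered both counts by over 1.5 times, to 577 and 571 for genes higher. The 8 libraries alone gave 609 lower, the 3 libraries left out 535 higher and 167 lower, and the covariates 436 and 389. Genes without overlap were 573 to 1278 higher and 351 to 1788 lower without 1 library, 1870 and 2722 without VX_Veh4 and VX_SHU4, and 2493 and 3078 without VX_Veh1 too, where fewer libraries are compared.

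Of 93 named genes, 89 kept their direction in every alternative run for them, and 9 of 2417 values turned. Many of these genes were named for a small p in the same libraries. By limma-voom Pparg was at −0.0937, Fasn at −0.22 and Scd1 at −0.0354. With the covariates Adipoq was at −0.0757, Pparg at −0.0948, Fasn at −0.56 and Scd1 at −0.20. Pparg was at −0.0471 without the 3 libraries, and Fasn ranged from −0.13 without VX_SHU3 to 0.54 without VX_SHU2. The interaction of Lep was 0.0821 without VX_Veh4 and VX_SHU4, and that of Mest ranged from −0.14 without VX_SHU3 to 0.65 without Sham_SHU2. The cause was not tested.

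With the replicate number as a block 0 genes passed (smallest adjusted p 0.205 by edgeR). Same-numbered libraries had correlations of their deviations of −0.03, 0.21, 0.35 and 0.62, and 1 of 4 numbers correlated best with itself, and the labels name nothing that the numbers share, so the numbers were not taken as pairs.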
